A study of Danio rerio with 14 samples.

Results

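The her genes of zebrafish encode transcriptional repressors of the Hairy and Enhancer of split family, the relatives of mammalian Hes proteins. Transcript levels of 9 of these genes (her1, her2, her3, her5, her6, her7, her8a, her9 and her15.2) were examined in mid-gastrula embryos that had or had not been exposed to ethanol. The genes were taken by name. A probe set, the group of short probes that reports 1 transcript on the array, was included when the array annotation gave it 1 of these 9 symbols and no other. This gave 12 of the 15502 probe sets and 9 of the 8793 named genes. The matching of probe sets used no measured value, but the family itself was picked with earlier results of these data known.

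Her proteins carry a basic helix-loop-helix domain followed by an Orange domain, bind DNA as dimers and recruit Groucho/Tle corepressors through a short motif at their carboxyl end. Many her genes are direct targets of Notch: a Delta or Jagged ligand on one cell activates the receptor on its neighbour, and the freed intracellular domain switches on her genes, whose products hold proneural genes such as neurog1 down. In the zebrafish gastrula, some members keep parts of the neural plate free of early neurons, and others oscillate in the margin and, later, the tail bud as parts of the segmentation clock.

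All embryos were of the TL strain and were collected whole at 8 hpf. Ethanol treated embryos were raised in medium with 100 mM (0.6%) ethanol from 2 hpf on, for 6 hours in all, and control embryos were raised in medium without ethanol. RNA of about 20 embryos was pooled for each array, with 7 control and 7 ethanol arrays. By the study's methods, every batch of embryos supplied 1 pool of each treatment. Pools with the same replicate number in the sample titles (1 to 6 and 8) were taken as 1 batch, since the titles do not name the batch. The study describes the batches as independent experiments and points to embryos of a single breeding pair in each as a possible reason for differences between batches. All 14 arrays were labelled, hybridized and scanned together. A pool averages over every tissue of the embryo, so fewer cells that express a gene and less RNA per cell cannot be told apart.

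The values are MAS5 signals, intensities on a linear scale that were set to the same overall level on each array. The median signal of an array lay between 214 and 282 in control embryos and between 219 and 296 in ethanol treated embryos, and 7943 to 9262 probe sets per array had a signal of 200 or more. A probe set entered the test when 3 or more of the 7 control arrays, or of the 7 ethanol arrays, were at or above 200, and 9240 probe sets met this minimum. Each log2 change (ethanol minus control) was fitted with limma over the 7 pairs with embryo batch as a block. It is given with its standard error (SE). A change counts as called where p, adjusted by Benjamini-Hochberg over all 9240 probe sets, is 0.10 or lower. Signals of different probe sets are not on a common scale, so levels are compared only within a probe set.

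Ethanol lowered 4 her probe sets, which stand for her15.2 (both of its probe sets), her2 and her9, and raised none of them. Of the 12 her probe sets, 10 were tested and these cover all 9 genes. The 4 calls are 40.0% of the probe sets tested, whereas 4.36% of all probe sets tested were called, 2.00% as lower and 2.36% as higher. At an unadjusted p under 0.05, 5 of the 10 were lower and 0 were higher (limma), beside 15.0% of all probe sets in either direction. The log2 change was below 0 for 7 of the 10 her probe sets and for 50.2% of all, and the median change was -0.26 for the her probe sets and -0.0014 over all. Of the 10, 3 were lower in all 7 pairs, as were 2.97% of all probe sets, and 0 were higher in all 7 pairs, as were 3.15% of all. For her1, her3, her5, her6, her7 and her8a no probe set passed the threshold.

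**Figure D1:**
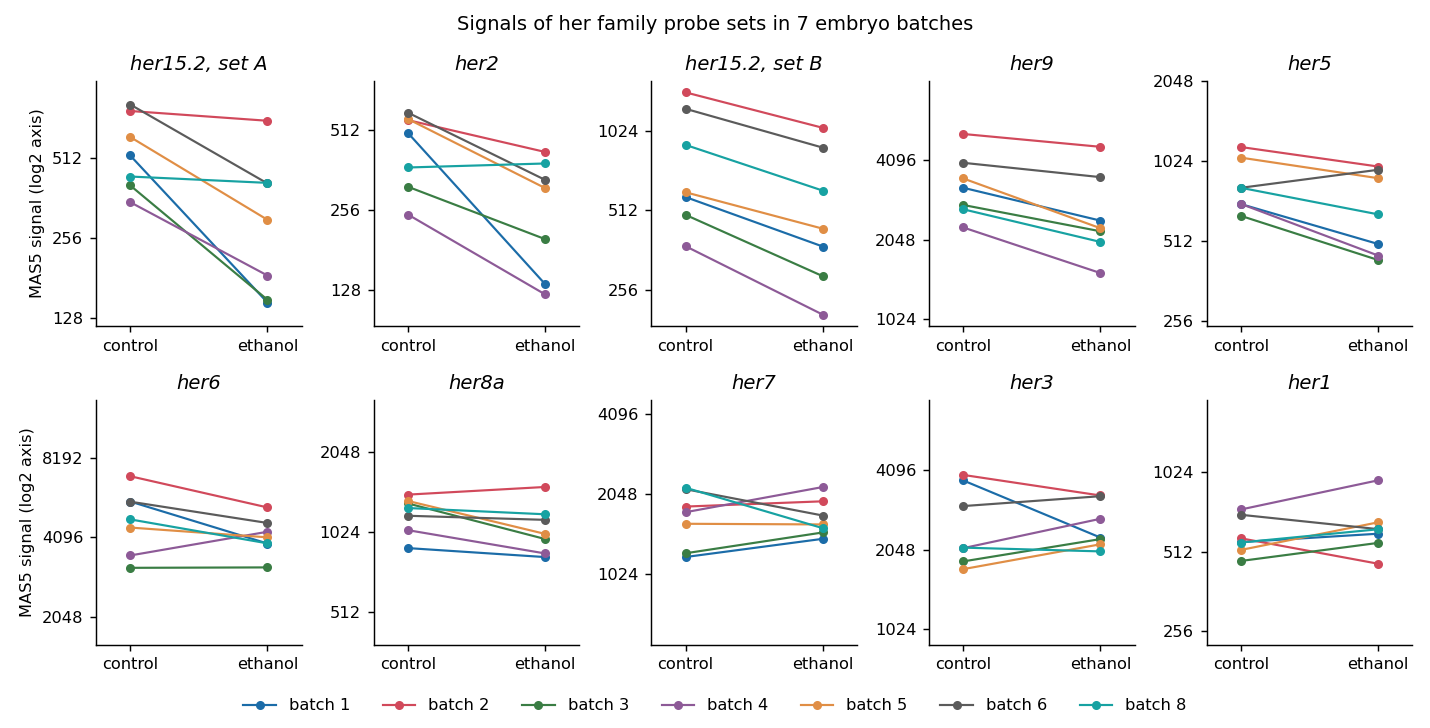
MAS5 signal (vertical axis, log2 scale, with the same number of doublings in every panel) of the 10 her probe sets tested, for control and ethanol treated embryos. Each line joins the 2 pools of 1 embryo batch. All lines of both her15.2 probe sets (set A and set B) and of her9 slope down, and batches keep much of their order between the treatments.

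Among the 10 her probe sets tested, the largest change was in her15.2, a Hes5-type gene that responds to Notch in neural precursors and in the presomitic mesoderm. One of its probe sets, called set A here, had signals from 349 to 815 with a median of 523 in control embryos. In ethanol treated embryos its signals ran from 146 to 708 with a median of 299. The groups overlapped, but every ethanol pool lay below the control pool of its own batch. The log2 change was -0.92 (SE 0.21, 95% interval -1.36 to -0.48, n = 7 pairs, adjusted p = 0.025, limma), a 1.89-fold lower level.

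The fall was uneven between batches. It was deepest in batch 1 (-1.84) and batch 3 (-1.43), lay between -1.04 and -0.92 in batches 4, 5 and 6, and was shallow in batch 2 (-0.12) and batch 8 (-0.08). The 3 lowest ethanol pools, those of batches 1, 3 and 4, were below 200, while all 7 control pools were above it.

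The other her15.2 probe set (set B) had a median of 600 (375 to 1429) in control embryos and of 437 (207 to 1050) in ethanol treated embryos. Here too the groups overlapped across batches and each ethanol pool was below its control. The log2 change of set B was -0.60 (SE 0.13, 95% interval -0.87 to -0.33, n = 7 pairs, adjusted p = 0.0185, limma), which is 1.52-fold lower. The pairs were closer together than for set A, from -0.86 in batch 4 to -0.44 in batch 2. The genome carries her15.1 and her15.2 as neighbouring, near-identical copies, and no probe set was annotated to her15.1 alone, so the signals of both probe sets may come from either gene.

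her2, another gene of the Hes5-like group, fell as well. In the RefSeq annotation her2, her15.1 and her15.2 follow each other on the chromosome. Signals of her2 ran from 246 to 597 with a median of 501 in control embryos, and from 123 to 424 with a median of 310 in ethanol treated embryos. The control pools of batches 1, 2, 5 and 6 were above every ethanol pool. As for her15.2 set A, the ethanol pools of batches 1, 3 and 4 were below 200 (135, 199 and 123). The log2 change was -0.80 (SE 0.22, 95% interval -1.27 to -0.34, adjusted p = 0.0633, limma), or 1.74-fold lower, and 6 of 7 pairs were lower.

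The pairs of her2 resembled those of her15.2 set A at both ends of their range. Batch 1 showed the deepest fall of her2 (-1.90), and batch 8, with the shallowest fall of set A, was the batch in which her2 was not lower (0.05). Set B of her15.2 did not share this, and its log2 change in batch 8 was -0.57. Over the 7 pairs, changes of her2 correlated with those of set A at r = 0.86 and of set B at r = 0.21. The changes of set A and set B, both of her15.2, correlated with each other at r = 0.37. Of the 4 calls, that of her2 depended most on single batches. It missed the threshold without batch 1 (log2 change -0.62, adjusted p = 0.132), batch 4 (adjusted p = 0.123), batch 5 (adjusted p = 0.142) or batch 6 (adjusted p = 0.143), and kept it without batch 2, 3 or 8. The call of her2 was also lost in a fit of all probe sets without the signal minimum (adjusted p = 0.126, limma).

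The remaining fall was in her9, a repressor that, with her3, keeps the stretches of neural plate between the proneural fields free of neurons in zebrafish and does so without needing Notch. Control signals of her9 lay between 2276 and 5130 with a median of 3214. Ethanol signals lay between 1531 and 4588 with a median of 2261. The spread within a treatment was wide, yet the 7 pairs were all lower, with log2 changes from -0.62 (batch 5) to -0.16 (batch 2). The log2 change was -0.38 (SE 0.09, 95% interval -0.57 to -0.20, adjusted p = 0.0243, limma), or 1.31-fold lower.

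Calls of both her15.2 probe sets and of her9 were kept with each of the 7 pairs left out (highest adjusted p 0.0708, 0.0541 and 0.082 in that order). Without the batch term none of the 4 passed (adjusted p from 0.469 to 0.723, with the same log2 changes). With batch as a random effect that has a single correlation (0.313) for all probe sets, her15.2 set A narrowly passed (adjusted p = 0.0994, limma). In that fit her15.2 set B (adjusted p = 0.296), her9 (adjusted p = 0.273) and her2 (adjusted p = 0.132) missed the threshold. With each array centred on its median, her9 missed it too (-0.41, adjusted p = 0.128).

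her3, the partner of her9 in the neural plate and a direct repressor of neurog1, did not pass the threshold. Its tested probe set had a median of 2082 (1727 to 3917) in control embryos and of 2272 (2015 to 3275) in ethanol treated embryos. It was higher with ethanol in 4 of 7 pairs, and the log2 change was 0.01 (SE 0.12, 95% interval -0.23 to 0.25, adjusted p = 0.981, limma). In batch 1 it was lower (-0.72), a larger shift than in any other batch, where it lay between -0.26 and 0.37.

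her5 marks the future midbrain-hindbrain boundary and keeps it free of neurons, and it is also active in early endoderm. Its signals had a median of 812 (636 to 1157) in control embryos and of 644 (433 to 977) in ethanol treated embryos. It was lower in 6 of 7 pairs and higher in batch 6 (0.23). The log2 change of -0.33 (SE 0.13, 95% interval -0.60 to -0.06) had an unadjusted p of 0.0198 and an adjusted p of 0.219 (limma), and so was not called.

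her6, the Hes1-type member that restrains neuronal differentiation in the neural tube, had a median of 4793 (3146 to 6975) in control embryos and of 4100 (3157 to 5318) in ethanol treated embryos. The log2 change was -0.19 (SE 0.09, 95% interval -0.38 to 0.01, adjusted p = 0.361, limma), with 5 of 7 pairs lower and batch 4 higher (0.30).

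her8a, which is needed for Notch signalling in the zebrafish nervous system, did not pass the threshold on its tested probe set either. The median was 1263 (892 to 1419) in control embryos and 1009 (825 to 1517) in ethanol treated embryos. It was lower in 6 of 7 pairs, and the log2 change was -0.19 (SE 0.11, 95% interval -0.41 to 0.04, adjusted p = 0.449, limma).

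The pair of clock genes showed no call. her1 and her7 lie next to each other in the genome and oscillate together in the presomitic mesoderm. The signals of her1 had a median of 556 (472 to 738) in control embryos and of 622 (461 to 952) in ethanol treated embryos, with 5 of 7 pairs higher and a log2 change of 0.10 (SE 0.14, 95% interval -0.18 to 0.39, adjusted p = 0.788, limma). The signals of her7 had a median of 1751 (1186 to 2166) and of 1574 (1389 to 2179), with a log2 change of 0.00 (SE 0.11, 95% interval -0.23 to 0.24, adjusted p = 0.991, limma). In batches 1, 3 and 4 both genes were higher with ethanol, and in batch 6 both were lower. In batches 2, 5 and 8 their changes had opposite signs (her1 -0.32, 0.35 and 0.17, her7 0.07, -0.01 and -0.51). Whether the clock genes and the 3 lower genes differed in their response was not tested.

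**Figure D2:**
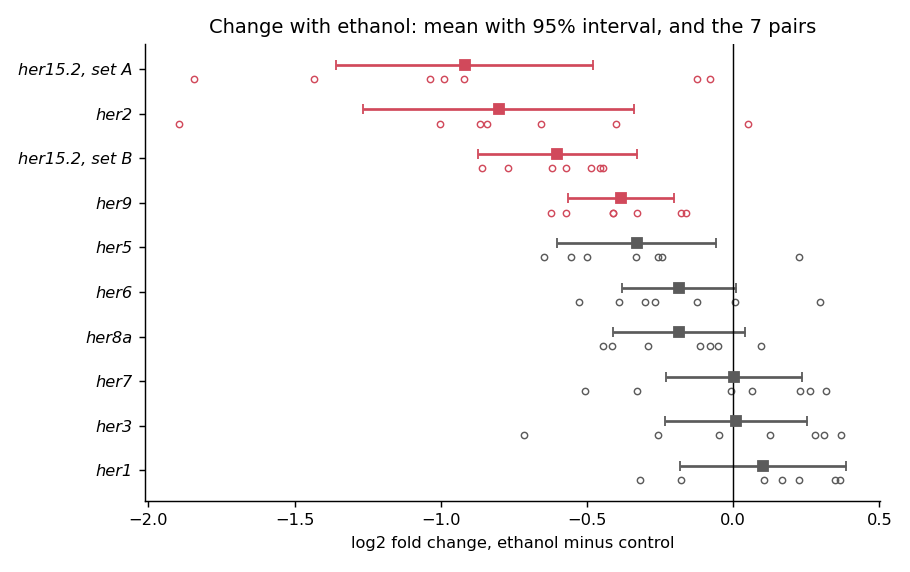
Log2 change (ethanol minus control, horizontal axis) of the 10 her probe sets tested. Squares are the means with their 95% intervals from limma, open circles are the 7 pairs, and red marks the 4 called probe sets (adjusted p of 0.10 or lower). The called probe sets lie between -0.92 and -0.38, and the other means lie between -0.33 and 0.10.

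A further probe set each of her3 and her8a stayed below 200 on all 14 arrays and was not tested. The dim her3 probe set gave signals from 9.69 to 60.5 in control embryos and from 59.6 to 185 in ethanol treated embryos, higher in 6 of 7 pairs. In a fit of all probe sets without the signal minimum its log2 change was 2.1 (SE 0.74, adjusted p = 0.216, limma). This is unlike the tested her3 probe set, whose change was 0.01, so the probe sets of her3 disagree and the dim one was not used. The dim her8a probe set gave signals from 11 to 59.2 in control embryos and from 12.2 to 151 in ethanol treated embryos, with a log2 change of -0.25 (SE 0.77, adjusted p = 0.951, limma) in the same fit.

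For each of the 10 her probe sets tested, the 4 lower ones included, the range of the 7 batch means was wider than the difference between the treatments. A range over 7 batches and a difference between treatments are unlike measures. In the moderated F test of batch over the same fit, 7 of the 10 her probe sets passed an adjusted p of 0.10, beside 22.3% of all probe sets. The mean signal of her15.2 set B, over both treatments of a batch, ranged 4.4-fold from batch 4 to batch 2 (adjusted p = 3.53e-05, limma F test), against its 1.52-fold difference with ethanol. For her9 the batch range was 2.60-fold, again from batch 4 to batch 2 (adjusted p = 0.000137). her15.2 set A ranged 3.01-fold between batches 3 and 2 (adjusted p = 0.0293), and her2 ranged 2.80-fold between batches 4 and 2 (adjusted p = 0.0861).

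Batch 2 had the highest mean of 8 her probe sets, which stand for 7 genes. The exceptions were her1 and her7, both highest in batch 4, in which her2, her9 and her15.2 set B were lowest. her1, her7 and her8a were the members without a batch call (adjusted p = 0.31, 0.13 and 0.109). her3, her5 and her6 passed the batch test (adjusted p = 0.0234, 0.0188 and 0.0153).

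**Figure D3:**
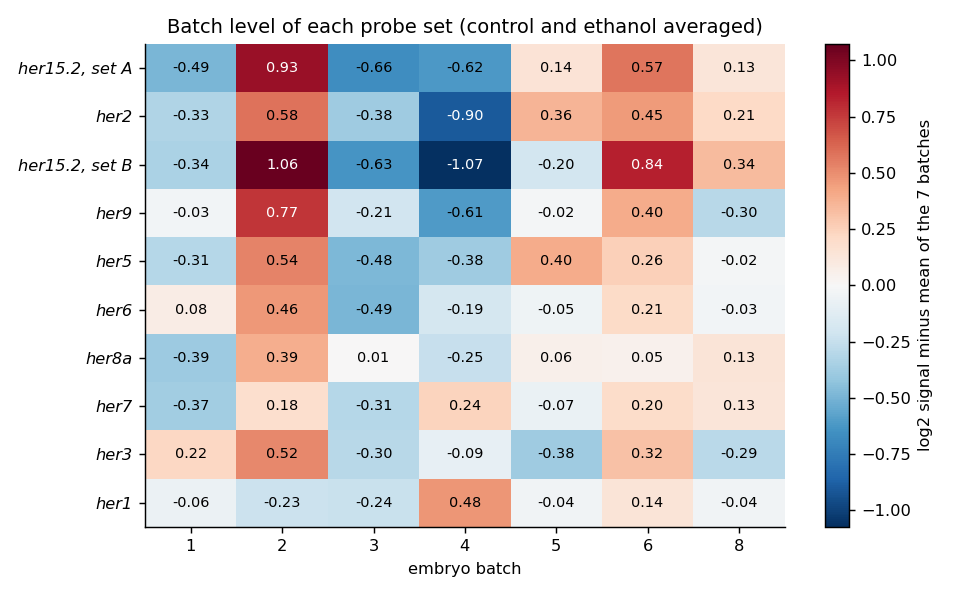
Mean log2 signal of each batch (control and ethanol pools averaged) minus the mean of the 7 batches, for the 10 her probe sets tested, with batches along the horizontal axis and red for higher levels. Batch 2 was high for most members (1.06 for her15.2 set B) and batch 4 low for her2, her9 and her15.2 set B (-0.90, -0.61 and -1.07), while her1 was highest in batch 4 (0.48).

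A list of genes taken to rise in later gastrulation had 16 genes with a probe set, of which 8 were tested. It was put together with earlier results of these data known, so its share of calls is a description and not a test. Whether its genes rise was not measured, since all pools were of 8 hpf. Of the 8, 4 fell and 0 rose, or 50.0% beside 4.36% of all probe sets: hoxb3a (-1.33), hoxc8a (-1.02), shhb (-0.97) and neurog1 (-0.93). Both shhb and neurog1 are also on other lists described below, so their calls there are the same calls. The uncalled genes rx3, myf5 and foxd3 are shared with the neural plate, margin and axial mesoderm lists. The lists are therefore not independent of each other. At an unadjusted p under 0.05, 6 of the 8 were lower and 0 higher (limma), beside 15.0% of all probe sets in either direction. Of the 8, foxd3 was the 1 gene above 0 (0.11). All 8 passed the batch F test, beside 22.3% of all probe sets. The summed signal of the 16, in which bright genes weigh most, was highest in batch 2 (15344 in control and 12440 in ethanol treated embryos) and lowest in batch 4 (6945 and 5471), and it was lower with ethanol in 7 of 7 pairs. The study reports that epiboly, the spreading of cells over the yolk, was slower in embryos given the same ethanol treatment than in controls. The developmental stage of each pool was not measured on the arrays. The part of such a delay, or of this list, in the her changes was not tested.

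The genes most like each lower member over the 14 arrays were taken from 6016 named genes, each represented by its brightest tested probe set, by Pearson's r of the log2 signals, as a description, since arrays share batches and treatments. For her15.2 (set B) they were hoxc8a (r = 0.964), apoa2 (r = 0.963) and meis2b (r = 0.955). The Hox gene hoxc8a and the Hox cofactor gene meis2b are patterning genes, and apoa2 is an apolipoprotein gene of the yolk syncytial layer. All 3 fell with ethanol (-1.02, -1.07 and -0.55), and meis2b missed the threshold without batch 3 or 4 (adjusted p up to 0.124).

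For her9 they were neurog1 (r = 0.937), cox10 (r = 0.931) and zfp36l1a (r = 0.92). neurog1, the proneural factor of the earliest neurons, and zfp36l1a, which encodes an RNA-binding protein, fell with ethanol (-0.93 and -0.40), although zfp36l1a missed the threshold without batch 2, 4, 5, 6 or 8 (adjusted p up to 0.155). cox10 did not pass the threshold (-0.32, adjusted p = 0.156). For her2 they were rps9, eif3g and anxa4 (r = 0.899, 0.899 and 0.898), none of which passed the threshold (-0.18, -0.18 and -0.28). her15.2 set A, which was not in the search because set B stood for the gene, was closer to her2 than these (r = 0.934).

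Other genes of the Notch pathway and partners of the her repressors were read from the same fit. Of 98 genes in 8 lists (ligands, receptors, receptor processing, nuclear factors, Groucho/Tle corepressors, further her, hes and hey genes, proneural genes and Id inhibitors), 55 had a probe set and 39 were tested. Of these, 4 fell and 0 rose, which is 10.3% against 4.36% of all probe sets, and the median change was -0.04. At an unadjusted p under 0.05, 7 were lower and 2 higher (limma), beside 15.0% of all probe sets in either direction. The same 15.0% stands beside the unadjusted counts of the single lists below.

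Among 5 ligands tested, dla fell. At an unadjusted p under 0.05 (limma), 1 ligand was lower and 0 higher. dla encodes a Delta ligand of newly specified neurons and of mesoderm. Its signal averaged 1958 ± 353 (SD, n = 7) in control embryos and 1444 ± 356 (SD, n = 7) in ethanol treated embryos. The log2 change was -0.46 (SE 0.11, adjusted p = 0.0321, limma), and it was lower in 6 of 7 pairs. The clock ligand dlc (-0.23, SE 0.13, adjusted p = 0.447) and dld (0.02, SE 0.09, adjusted p = 0.953) did not pass the threshold.

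None of the 3 receptors tested was called. notch3 had a log2 change of -0.23 (SE 0.09, adjusted p = 0.213) and notch1a of -0.11 (SE 0.12, adjusted p = 0.711). At an unadjusted p under 0.05, 1 receptor was lower and 0 higher. Of 10 genes of receptor processing, 0 were called, with 2 higher and 0 lower at an unadjusted p under 0.05 (limma).

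Of 3 nuclear factors tested, ctbp1, which encodes a corepressor, fell (-0.79, SE 0.23, adjusted p = 0.0836, limma, lower in 7 of 7 pairs). It missed the threshold with any 1 of the 7 pairs left out (adjusted p from 0.107 to 0.172). At an unadjusted p under 0.05 (limma), 1 nuclear factor was lower and 0 higher. None of the 3 Groucho/Tle genes tested was called: tle3b had a change of -0.27 (SE 0.11, adjusted p = 0.263), tle2a of -0.01 (SE 0.07) and tle3a of 0.49 (SE 0.68). Of these, 1 was lower and 0 higher at an unadjusted p under 0.05. Of 4 Id genes, whose products block bHLH dimers, 0 were called, with 1 lower and 0 higher at an unadjusted p under 0.05.

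Of 3 relatives tested, hes6 alone was called, as lower. Its product is the dimer partner of the clock repressors, and its signal was 12203 ± 1195 (SD, n = 7) in control embryos and 10160 ± 1422 (SD, n = 7) in ethanol treated embryos (log2 change -0.27, SE 0.08, adjusted p = 0.076, limma, 6 of 7 pairs lower). At an unadjusted p under 0.05 (limma), 1 relative was lower and 0 higher. The her4 genes had dim probe sets that were not tested.

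Among 8 proneural genes tested, neurog1 alone was called and alone had an unadjusted p under 0.05 (limma). Its signal was 475 ± 302 (SD, n = 7) in control embryos and 301 ± 277 (SD, n = 7) in ethanol treated embryos (log2 change -0.93, SE 0.25, adjusted p = 0.0589, limma, 6 of 7 pairs lower). With 6 pairs several of these calls were lost while the changes stayed lower. That of dla was lost without batch 6 or 8, that of hes6 without batch 3, 4, 5, 6 or 8, and that of neurog1 without batch 1, 2, 4, 5 or 8, at adjusted p from 0.108 to 0.189. Over all left-out pairs the log2 change ran from -0.55 to -0.41 for dla, from -0.33 to -0.23 for hes6 and from -1.18 to -0.81 for neurog1.

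**Figure D4:**
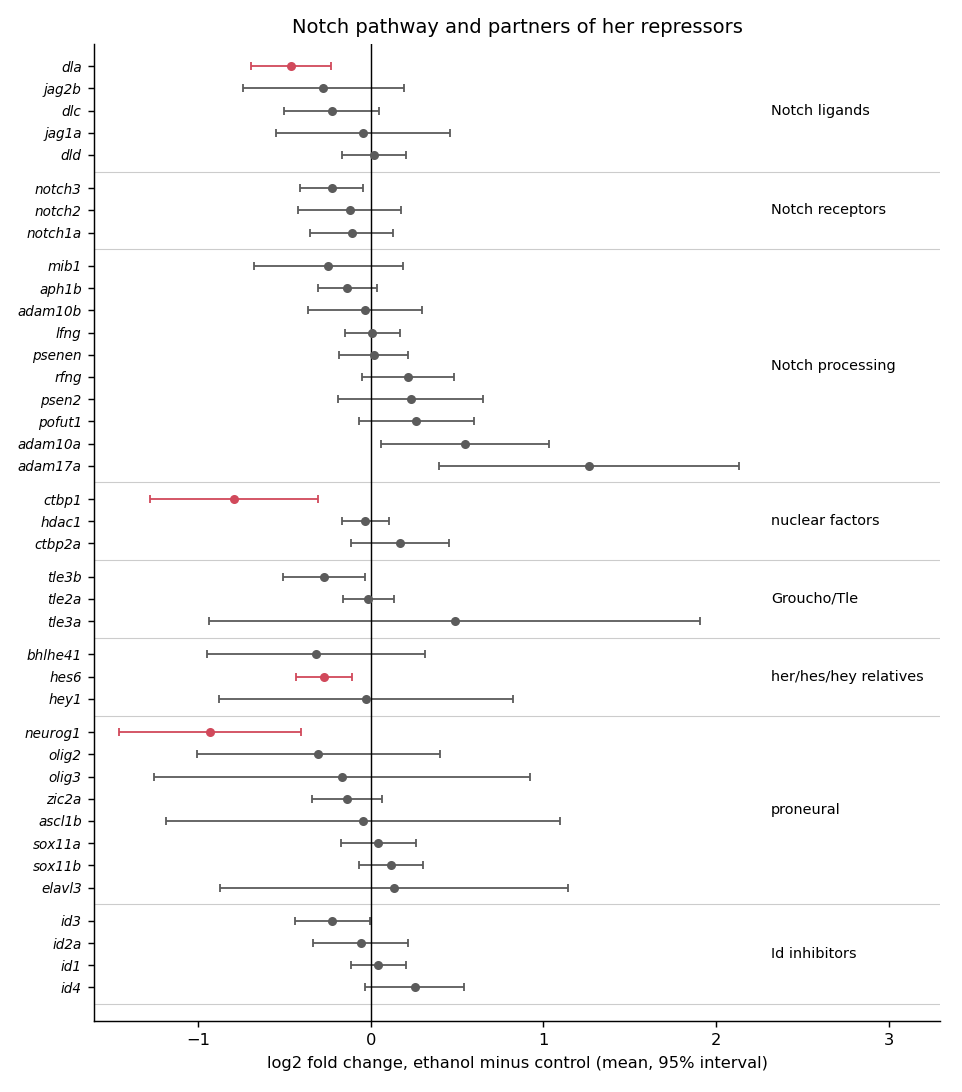
Log2 change (ethanol minus control, horizontal axis) with its 95% interval for the 39 other genes of the Notch pathway and partners of the her repressors that were tested, grouped by role. Red marks the 4 called genes, dla, ctbp1, hes6 and neurog1, which were all lower.

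Tissue markers were read in the same way. Over all probe sets tested, 4.36% were called and 15.0% had an unadjusted p under 0.05 (limma). Of 16 neural plate genes tested, the tissue in which most her genes act, six3a (0.84) and sox19a (0.54) rose and irx1b (-0.32) fell. These calls are 18.8% of the list. Of the 16, 12 had a log2 change below 0 (median -0.12), and 5 were lower and 3 higher at an unadjusted p under 0.05 (limma). None of 13 genes of the margin and presomitic mesoderm was called, with 1 higher and 1 lower at an unadjusted p under 0.05 (limma). The lower one, fgf8a, is also on the neural plate list and among its lower genes. Of 10 axial mesoderm genes, shhb (-0.97), shha (-0.57) and frzb (-0.46) fell, or 30.0% of the list. At an unadjusted p under 0.05, 4 were lower and 1 higher (limma). The study reports that its arrays detected no difference in shh, and its gene selection used other thresholds than here. The calls of six3a and sox19a were kept with each pair left out. That of irx1b was lost without batch 3, 4, 5, 6 or 8 (adjusted p up to 0.254), that of shhb without batch 4, 5, 6 or 8 (up to 0.137), that of shha without batch 2, 3, 4, 6 or 8 (up to 0.186) and that of frzb without any batch but 1 (up to 0.287).

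The extraembryonic layers are part of each pool. Of 14 genes of the yolk syncytial layer tested, 9 fell and 0 rose, or 64.3% beside 4.36% of all probe sets. At an unadjusted p under 0.05, 11 were lower and 0 higher (limma), beside 15.0% of all probe sets in either direction. Among the 9 were apoba (-1.77), apoa4b.1 (-1.58) and apobb.1 (-1.23). Without batch 4 these changes were -1.10, -1.04 and -0.92. The call of apoa4b.1 was lost without any batch but 1 (adjusted p up to 0.246) and that of apoba without batch 5 (adjusted p = 0.108). The summed signal of this list ran from 145900 to 184690 in control embryos and from 120220 to 178240 in ethanol treated embryos, lower in 7 of 7 pairs. Of 14 enveloping layer genes, epcam rose (0.31) and anxa1b (-0.72) and anxa1a (-0.25) fell, or 21.4% of the list. At an unadjusted p under 0.05, 4 of the 14 were higher and 4 lower (limma), beside the same 15.0%. The call of epcam was lost without batch 1, 4, 5, 6 or 8 (adjusted p up to 0.227) and that of anxa1a without batch 1, 3, 4, 5 or 8 (adjusted p up to 0.269). The part of tissue make-up in the her changes was not tested.

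The study examined the RNA on a Bioanalyzer and reports high integrity numbers for all samples. On the arrays, RNA quality was read from control probe sets at the 3' and 5' ends of GAPDH and acta1 transcripts. For GAPDH the log2 ratio of 3' to 5' signal was higher in ethanol pools by 1.82 on average, in 6 of 7 pairs (two-sided exact sign-flip permutation test, p = 0.0625, the smallest possible being 0.0156). For acta1 it was higher by 1.57 on average, in 5 of 7 pairs (same exact permutation test, p = 0.156). Neither passed 0.05, and 16 and 22 of 28 of these signals were below 200. Without batch 8, which had the largest differences (5.79 and 4.26), the means were 1.16 and 1.12. Batch 1, with the deepest falls of her15.2 set A and her2, had differences of 2.97 and 3.22, batch 4 had 2.94 and 3.28, and batch 2 had -0.75 and -3.02. Batch 3, with the next deepest fall of her15.2 set A (-1.43), had differences of 0.76 and -0.33. Batches 5 and 6, in which set A fell by -1.04 and -0.99, had 0.50 and 1.23 (batch 5) and 0.56 and 2.33 (batch 6). In batch 8 the log2 changes of her15.2 set A, set B, her2 and her9 were -0.08, -0.57, 0.05 and -0.41, and in batch 2 they were -0.12, -0.44, -0.40 and -0.16. The part of RNA quality in the her changes was not tested.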

How the data were processed

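RNA of 14 pools of whole embryos was measured on the Affymetrix Zebrafish Genome Array. The authors computed MAS5 signals in the Affymetrix software, scaled every array to a target of 1000 and deposited the resulting linear intensity values. Besides 115 control probe sets, which were left out, the table has 15502, and it has no detection calls, so the study's presence filter was not repeated. By the array annotation 10796 probe sets have 1 symbol, 134 several and 4572 none.

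The log2 signals were fitted in limma 3.58.1 (R 4.3.3). The model had treatment and embryo batch as fixed terms, and variances were moderated by eBayes along a trend with the mean (residual degrees of freedom 6, prior 12.7). The minimum signal left out 6262 probe sets. The study's methods use the same factors in an analysis of variance with batch as a random effect. In this balanced paired design, a fixed batch block gives the same treatment contrast as that analysis. The random block among the alternatives is another model, because it has a single correlation for all probe sets. Batches were tested by a moderated F test over 6 coefficients. The replicate numbers in the sample titles pair the pools. Deviations of same-numbered arrays from their treatment means correlated positively in all 7 pairs (0.112 to 0.378). Arrays with different numbers were not compared in this way, so these values do not test the pairing.

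The genes, lists and tests were chosen with earlier results of these data known. Named were all her probe sets, up to 3 called genes of each list with the largest changes, dla, dlc, dld, notch1a, notch3, the measured tle genes, neurog1, hes6, and the 3 genes most like each lower member. Where a listed gene had several tested probe sets, the brightest on average stands for it. The alternatives were other minimum signals, scalings, offsets, batch terms, variance models and thresholds, and left-out pairs. On simulated data for 9240 probe sets the fit recovered 48% of log2 changes of 0.5 and 84% of changes of 1. Of 142 calls there, 7.04% were false, and small changes were often missed. Noise was simulated independently for each probe set, and few probe sets were changed. These rates may therefore differ on the real arrays, which gave 403 calls. Precision is limited by having 7 arrays per treatment. Gene order comes from the RefSeq table of another assembly than the array's, so no coordinates are given. Figures were drawn with matplotlib 3.10.9.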

Additional observations from a re-analysis of the deposited data

Results flagged for a closer look

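In 24 groups of 7 signals (12 her probe sets in each treatment), 2 had 1 array that stood apart by Dixon's criterion at the 95% level. Chance marks about 1 in 20 such groups. For her1, the ethanol pool of batch 4 was highest at 951.6, above the next at 660.53 (gap over range 0.593), and the control pool of that batch was also the highest of its group (738). Without batch 4 the log2 change of her1 was 0.06 (adjusted p = 0.923, limma). For the dim, untested her8a probe set, the ethanol pool of batch 6 was highest at 151.46, above the next at 67.884 (gap over range 0.6).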

How the results depend on the processing

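The 4 her calls were replaced by 0 without the replicate block (2 lower and 0 higher at an unadjusted p under 0.05), by 1 with the block as a random effect (her15.2 set A) and by 1 without a variance trend (her15.2 set B). They were 3 or 4 under the other alternatives. All log2 changes of the 4 stayed below 0. The 403 calls over all probe sets became 28 without the replicate block, 177 with it as a random effect, 43 without a trend, 103 with median centring, 215 at an adjusted p of 0.05, 206 without batches 2 and 6, and 209 to 483 with 1 pair left out (241, 239, 246 and 209 without batch 4, 5, 6 and 8). The 4 pathway calls became 0 with median centring, without the replicate block, with it as a random effect and without a trend (8, 7, 9 and 7 genes at an unadjusted p under 0.05), 1 at an adjusted p of 0.05, 2 without batches 2 and 6, and 0 to 3 with 1 pair left out (0 without batch 8). Of the uncalled changes near 0, some turned sign: with median centring her3 was -0.0151, her7 -0.0205 and dld -0.00458. With 1 pair left out her3 ran from -0.051 to 0.13, her7 from -0.0485 to 0.0886, dld from -0.0154 to 0.0494 and tle2a from -0.0356 to 0.0171. Without batches 2 and 6, dld was -4.78e-05 and tle2a 0.0458. The cause was not tested for any of these. The median change of all probe sets stayed between -0.03 and 0.00 under every scaling. Dim probe sets and 7 pairs limit what could be detected.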
